A study of Mus musculus with 6 samples.

Results

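The AMPA receptor subunit genes Gria1, Gria2, Gria3 and Gria4 were followed in mouse neurospheres that overexpressed Bmi1 and in neurospheres that carried an empty vector. The members are the probe sets whose annotation named one of these 4 genes and no other, out of 35557 probe sets and 19938 genes with a probe set of their own. Each gene had exactly 1 such probe set, so the rule of taking the brightest probe set per gene made no choice. The family itself was selected on its readout, because the differences of Gria4 and Gria1 in these 6 arrays were already known, and the differences of the 4 genes are therefore given as a description.

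Neural stem and progenitor cells had been taken from CD1 mice aged 4-6 weeks, from the wall of the lateral ventricle, and were grown as neurospheres at clonal density. The Bmi1-overexpressing group held 3 cultures transduced with the retroviral vector pCMMP-Bmi1, and the empty vector control group held 3 cultures transduced with the vector alone. The labels name the untagged vector, whereas the study's text describes the array cells as overexpressing Bmi1-FLAG, and which of the constructs was used was not settled here. Cells of both groups were sorted on eGFP, and the series describes the cultures as independent within each group. Total RNA of each culture was hybridised to 1 Affymetrix Mouse Gene ST 1.0 array, and all values below are the deposited log2 RMA values, on which a difference of 1 is a 2-fold change.

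AMPA receptors are tetrameric cation channels gated by glutamate, and they carry most of the fast excitatory transmission in the brain. The subunits GluA1 to GluA4, encoded by Gria1 to Gria4, differ in their cytoplasmic tails and in how they are delivered to synapses, and channels that contain edited GluA2 pass little calcium. Glial cells and their precursors also carry AMPA receptors, as do some neural progenitors. A probe set that summarises a whole gene separates neither the flip and flop splice forms nor edited and unedited transcripts.

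Of the 4 genes, Gria2 and Gria4 matched the RefSeq promoter set of build GRCm38.p6, and both windows are shown so that their CpG dinucleotides can be read beside the differences given below. The set covers 250 bases before to 50 bases after each gene start. Both are read 5′ to 3′ on the minus strand, Gria2 at chr3:80802786-80803085 and Gria4 at chr9:4796185-4796484, and capitals mark the CpG dinucleotides.
Gria2: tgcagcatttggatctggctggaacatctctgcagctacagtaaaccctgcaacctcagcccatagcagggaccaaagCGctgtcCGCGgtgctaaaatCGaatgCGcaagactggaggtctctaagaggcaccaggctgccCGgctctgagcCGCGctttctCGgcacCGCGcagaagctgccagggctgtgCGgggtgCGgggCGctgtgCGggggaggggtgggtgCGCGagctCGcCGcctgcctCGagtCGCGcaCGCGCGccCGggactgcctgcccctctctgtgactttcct
Gria4: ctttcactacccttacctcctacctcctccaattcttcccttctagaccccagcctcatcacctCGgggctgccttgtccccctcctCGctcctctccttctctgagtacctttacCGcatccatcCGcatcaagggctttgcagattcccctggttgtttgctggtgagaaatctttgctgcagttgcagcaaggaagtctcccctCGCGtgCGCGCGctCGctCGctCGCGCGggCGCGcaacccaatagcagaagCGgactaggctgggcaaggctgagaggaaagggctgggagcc
The Gria2 window held 26 CpG dinucleotides and the Gria4 window 17, against a median of 7 (quartiles 3 and 20) over 32851 promoter windows of the same length. As many CpG dinucleotides or more were present in 16.9% of all windows for the Gria2 count and in 31.4% for the Gria4 count. The letters TGCGCA, the core of the motif bound by NRF1, a factor known for genes of mitochondria and neurons, occurred 1 time in the Gria2 window, 147 bases before the start, and not in the Gria4 window, while 7.76% of all windows held them on either strand. The letters GGGCGG, to which Sp1 binds, were in neither window and in 35.7% of all windows. Neither window held the TATA box letters TATAAA, which 13.6% of all windows held.

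The arrays were alike in overall scale, with medians between 4.37 and 4.45. Correlations across probe sets were 0.991 to 0.993 within groups and 0.985 to 0.987 between groups. The source field of all 6 arrays named the opposite group to their titles, and the titles were followed because the transduction and genotype fields matched them. The Bmi1 probe set measured 9.18, 8.36 and 8.42 in Bmi1-overexpressing neurospheres, against 7.70, 8.40 and 8.31 in empty vector controls, so that the groups overlapped and the probe set did not check the labels (difference 0.52, 95% confidence interval -0.16 to 1.19, limma adjusted p = 0.38). Cdkn2a, the Ink4a/Arf locus that Bmi1 is known to repress, averaged 5.95 ± 0.054 in Bmi1-overexpressing neurospheres and 7.04 ± 0.091 in empty vector controls (SD, n = 3 each), a difference of -1.08 (limma adjusted p = 0.0012).

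Transcript levels of the 4 subunit genes did not move together. Gria4 was 34.3-fold lower in Bmi1-overexpressing neurospheres, Gria3 was 1.57-fold lower, Gria2 was 1.31-fold lower and Gria1 was 2.19-fold higher. For each of the 4 genes the 3 Bmi1 values and the 3 empty vector values did not overlap, as held for 26.6% of all probe sets.

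Gria4, whose product GluA4 is prominent early in development and in fast-spiking interneurons and cerebellar glia, was at 3.25, 3.08 and 3.01 in Bmi1-overexpressing neurospheres, against 7.90, 8.25 and 8.50 in empty vector controls (probe set 10590663). The highest Bmi1 array lay 4.65 below the lowest empty vector array, whereas the arrays spanned 0.24 within the Bmi1 group and 0.59 within the empty vector group. Means were 3.12 ± 0.12 in Bmi1-overexpressing neurospheres and 8.21 ± 0.30 in empty vector controls (SD, n = 3 each). The difference was -5.10 (SE 0.16, 95% confidence interval -5.48 to -4.71), which is 26.2-fold to 44.8-fold in the measured values. It was the lowest of all 35557 differences. The Bmi1 values lay close to the lower quartile of all probe sets on those arrays, 2.88 to 2.92, and the table carries no detection call, so whether any Gria4 signal above background remained was not tested, and the 34.3-fold ratio of measured values can be a lower bound.

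Gria1, whose product GluA1 has the long tail through which activity recruits receptors to synapses, differed in the opposite direction. It was at 7.00, 6.75 and 7.06 in Bmi1-overexpressing neurospheres, against 5.71, 5.72 and 5.99 in empty vector controls (probe set 10376245). All 3 Bmi1 arrays were thus higher than all 3 empty vector arrays, with 0.76 between the nearest values. The means were 6.94 ± 0.16 in Bmi1-overexpressing neurospheres and 5.81 ± 0.16 in empty vector controls (SD, n = 3 each), and the difference was 1.13 (SE 0.12, 95% confidence interval 0.84 to 1.42). Among all probe sets, 1.15% had a difference of larger size.

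Gria3, whose product GluA3 pairs mainly with GluA2 in receptors that cycle at synapses without need of activity, was at 7.79, 7.67 and 7.84 in Bmi1-overexpressing neurospheres, against 8.36, 8.54 and 8.35 in empty vector controls (probe set 10599348). The 2 groups were separated by 0.51. Means of 7.77 ± 0.086 in Bmi1-overexpressing neurospheres and 8.42 ± 0.11 in empty vector controls (SD, n = 3 each) gave a difference of -0.65 (SE 0.086, 95% confidence interval -0.86 to -0.44).

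Gria2, whose product GluA2 sets the calcium permeability of the channel, had the narrowest difference of the family. Its values were 7.85, 7.87 and 7.97 in Bmi1-overexpressing neurospheres, against 8.21, 8.35 and 8.31 in empty vector controls (probe set 10498885), with 0.23 between the groups. Means were 7.90 ± 0.068 in Bmi1-overexpressing neurospheres and 8.29 ± 0.074 in empty vector controls (SD, n = 3 each), and the difference was -0.39 (SE 0.075, 95% confidence interval -0.57 to -0.21). A difference of larger size was found for 11.7% of all probe sets.

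**Figure D1:**
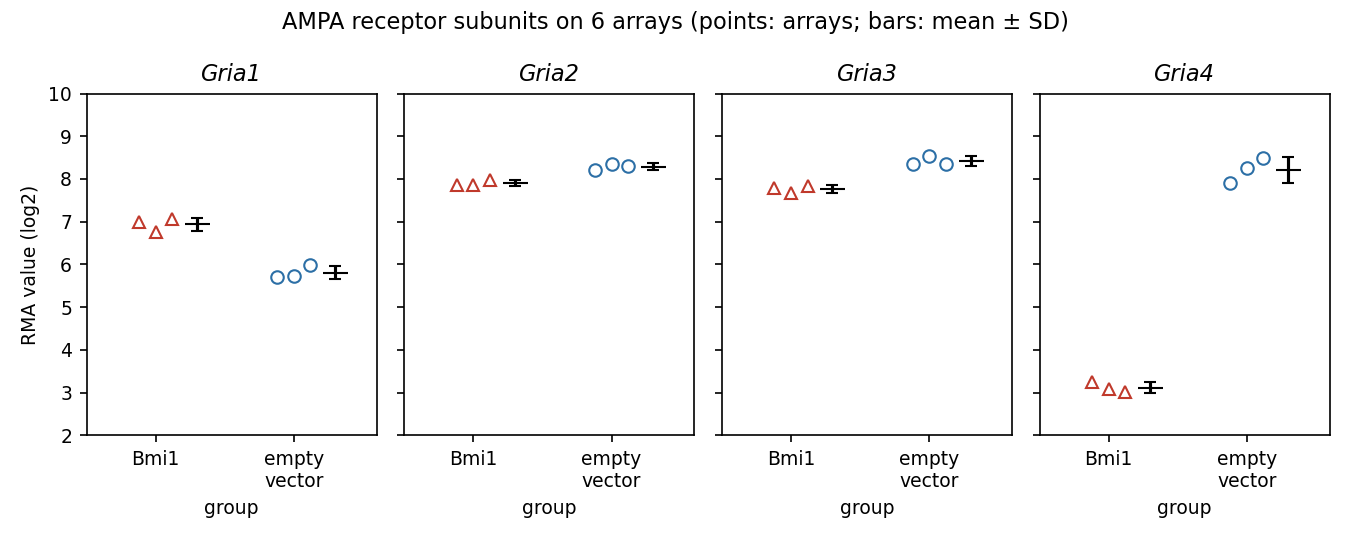
Log2 RMA values (y axis) of the 4 AMPA receptor subunit genes on the 3 Bmi1 arrays (red triangles) and the 3 empty vector arrays (blue circles), with the mean and SD of each group beside the points. Gria1 lies higher in the Bmi1 group and Gria2, Gria3 and Gria4 lie lower, with no overlap in any panel, and levels of different genes are not comparable because their probes differ.

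In the limma fit over all probe sets, 5.7% were called at an adjusted p under 0.05, of which 794 (2.23% of those tested) rose and 1231 (3.46%) fell. Centring each array on its median changed this split to 593 that rose and 1467 that fell, and each Gria gene kept its direction and its call there. All 4 Gria probe sets were called, 1 that rose and 3 that fell, with limma adjusted p of 0.00475 for Gria1, 0.0348 for Gria2, 0.0104 for Gria3 and 0.000277 for Gria4. These values place the genes in the whole table and are not independent evidence, since the family was chosen on the same contrast. The median difference over the 4 genes was -0.52, and over all probe sets it was 0.018. Gria1, Gria3 and Gria4 kept their calls when any 1 of the 6 arrays was left out, and Gria2 lost its call each time (limma adjusted p 0.0605 to 0.124). In cultures of mixed cells, fewer cells of a type that carries a transcript and less of that transcript per cell cannot be told apart.

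**Figure D2:**
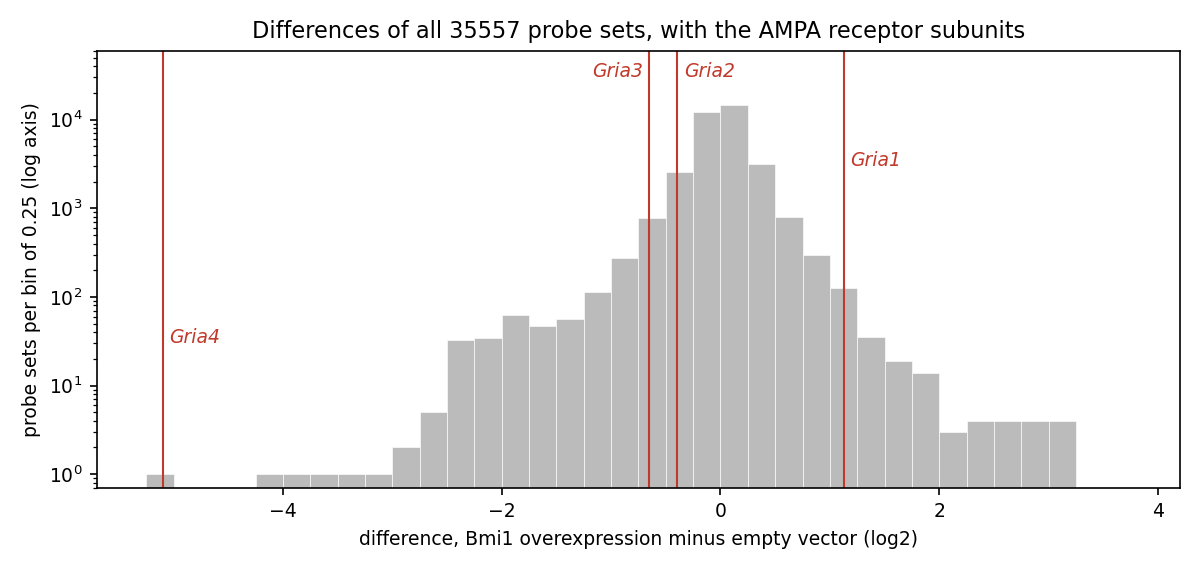
Number of probe sets (y axis, log scale) by difference between Bmi1-overexpressing and empty vector neurospheres (x axis, log2, bins of 0.25), with red lines at the 4 AMPA receptor subunit genes. Gria4 at -5.10 stands alone at the low end, Gria1 is at 1.13, and Gria2 at -0.39 and Gria3 at -0.65 lie in the flank of the distribution.

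The balance between subunits was described within each array, by subtracting the log2 value of one gene from that of another and comparing the result between groups. This cancels any shift shared by an array. Gria4 relative to Gria1 was -3.75, -3.67 and -4.05 in Bmi1-overexpressing neurospheres, against 2.19, 2.52 and 2.51 in empty vector controls, a shift of -6.23. Gria4 shifted by -4.71 relative to Gria2 and by -4.45 relative to Gria3. Relative to Gria1, Gria2 shifted by -1.52 and Gria3 by -1.78. The smallest shift was that of Gria3 relative to Gria2, whose values were -0.057, -0.19 and -0.14 in Bmi1-overexpressing neurospheres, against 0.15, 0.19 and 0.038 in empty vector controls, a shift of -0.26. The groups did not overlap in any of the 6 pairs. These pairs are built from 4 genes whose own values did not overlap, as held for 26.6% of all probe sets. These shifts are the differences between the members' own differences, on which the family was chosen, and are a description only. An exact permutation of 3 against 3 arrays gave p = 0.1 for each pair, the smallest value it can give, and so cannot decide.

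AMPA receptors work in complexes with auxiliary subunits, scaffolds and modifying enzymes, and 7 lists of such genes were drawn up from their known roles. The lists were chosen with earlier results of these data known, so their counts are a description only. Of 63 listed genes 59 were measured, and 2 rose, 11 fell and 46 did not pass the limma test. That is 22% called, against 7.35% in the same fit over the 19938 genes with 1 probe set each (2.98% rose and 4.37% fell), with a median difference of -0.11. The 13 calls became 6 to 9 when 1 array was left out.

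The transmembrane AMPA receptor regulatory proteins (TARPs) carry receptors to the surface and slow their closing. Of 6 TARPs, 1 rose, 1 fell and 4 did not pass, where 2.98% of all genes rose and 4.37% fell. Cacng4, a TARP of the developing brain and of glia, was at 7.62, 7.62 and 7.69 in Bmi1-overexpressing neurospheres, against 7.17, 7.18 and 7.04 in empty vector controls (difference 0.51, SE 0.071, limma adjusted p = 0.0123). Cacng5 was at 6.07, 5.74 and 5.81 in Bmi1-overexpressing neurospheres, against 6.50, 6.69 and 6.73 in empty vector controls (difference -0.77, SE 0.11, limma adjusted p = 0.0148). The 2 TARPs thus separated the groups in opposite directions. Cacng5 lost its call without Bmi1 replicate 2 or 3 or empty vector replicate 2 or 3 (limma adjusted p up to 0.0643). Cacng8, the TARP prominent in hippocampus, differed by -0.45 (limma adjusted p = 0.108) and Cacng2, or stargazin, by -0.13 (limma adjusted p = 0.511).

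Among 8 other measured auxiliary proteins, Cnih3 rose and 7 genes did not pass, where 2.98% of all genes rose. Cnih3, a cornichon that accompanies receptors from the endoplasmic reticulum and prolongs their currents, was at 6.14, 5.99 and 6.27 in Bmi1-overexpressing neurospheres, against 4.67, 4.50 and 4.68 in empty vector controls. Its difference of 1.52 (SE 0.099, limma adjusted p = 0.000956) corresponds to 2.86-fold. The related cornichon Cnih2 lay on the other side of 0, at -0.51 (limma adjusted p = 0.0545), and Syndig1, which promotes synapse formation, was at 0.41 (limma adjusted p = 0.119).

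Of 6 factors that assemble the receptor in the endoplasmic reticulum, 2 fell and 4 did not pass, where 4.37% of all genes fell. Cpt1c, a neuronal carnitine palmitoyltransferase relative that binds GluA1, was at 7.41, 7.14 and 7.43 in Bmi1-overexpressing neurospheres, against 8.37, 8.34 and 8.26 in empty vector controls (difference -0.995, SE 0.098, limma adjusted p = 0.00364). Sacm1l, a phosphoinositide phosphatase that acts with Cpt1c, averaged 8.28 ± 0.18 in Bmi1-overexpressing neurospheres and 8.94 ± 0.085 in empty vector controls (SD, n = 3 each; difference -0.66, limma adjusted p = 0.0217). Without Bmi1 replicate 2 or any of the empty vector arrays Sacm1l was no longer called (limma adjusted p up to 0.0865). Frrs1l, which releases assembled receptors for export, was at 0.28 (limma adjusted p = 0.103) and Porcn at -0.11 (limma adjusted p = 0.475).

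Of 16 scaffold and trafficking genes, 1 fell and 15 did not pass, where 4.37% of all genes fell. This count cannot be told apart from that share. Napa, the alpha-SNAP that works with Nsf to take apart fusion complexes, differed by -0.39 (limma adjusted p = 0.0222) and lost its call without any 1 of the arrays (0.0565 to 0.0922). Myo6, a motor that binds GluA1 through Dlg1, was at -0.39 (limma adjusted p = 0.0719), and Epb41l1, the 4.1N protein that anchors GluA1, was at 0.38 (limma adjusted p = 0.19).

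Of 10 measured extracellular organizers, which bind or gather AMPA receptors from outside the membrane, 3 fell and 7 did not pass, where 4.37% of all genes fell. Lrrtm4, a leucine-rich repeat protein that recruits receptors through heparan sulfate proteoglycans, was at 3.88, 3.62 and 3.62 in Bmi1-overexpressing neurospheres, against 5.29, 5.14 and 5.54 in empty vector controls. The nearest values of the 2 groups were 1.26 apart (difference between means -1.62, SE 0.13, limma adjusted p = 0.00193). Olfm2, an olfactomedin found in AMPA receptor complexes, differed by -0.54 (limma adjusted p = 0.0158) and was lost without Bmi1 replicate 1 or 2 or empty vector replicate 2 or 3 (up to 0.0636). Nptx2, a pentraxin that clusters receptors, differed by -0.32 (limma adjusted p = 0.0452) and was lost without any 1 of the arrays (0.0894 to 0.134). Nrn1, or neuritin, spread widely, at 5.93, 6.87 and 7.11 in Bmi1-overexpressing neurospheres, against 5.11, 5.66 and 4.97 in empty vector controls, and its difference of 1.39 did not pass (limma adjusted p = 0.0741), nor did that of Lrrtm2, 0.53 (limma adjusted p = 0.235).

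The enzymes that edit AMPA receptor transcripts did not pass the test, where 7.35% of all genes were called. Adarb1, which edits the site of Gria2 that limits calcium entry, averaged 5.49 ± 0.094 in Bmi1-overexpressing neurospheres and 5.37 ± 0.035 in empty vector controls (SD, n = 3 each; difference 0.12, 95% confidence interval -0.06 to 0.30, limma adjusted p = 0.464). Adar differed by 0.03 (limma adjusted p = 0.872), and Adarb2, for which no editing activity is known, is the remaining member and was also not called (limma adjusted p = 0.994). Editing itself was not measured.

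Of 10 measured kinases and phosphatases that act on the receptor, 4 fell and 6 did not pass, with a median of -0.31, where 4.37% of all genes fell. Camk2b, the beta chain of the calcium/calmodulin-dependent kinase that phosphorylates GluA1, was at 8.84, 8.90 and 9.00 in Bmi1-overexpressing neurospheres, against 9.49, 9.55 and 9.60 in empty vector controls (difference -0.63, SE 0.073, limma adjusted p = 0.00619). Prkcb, a protein kinase C, was at 8.56, 8.68 and 8.62 in Bmi1-overexpressing neurospheres, against 9.27, 9.56 and 9.31 in empty vector controls (difference -0.76, SE 0.097, limma adjusted p = 0.00876). In both cases the highest Bmi1 value stayed below the lowest empty vector value, and the calls were kept without any 1 array. Ppp3ca, the catalytic chain of calcineurin, differed by -0.52 (limma adjusted p = 0.016) but, when single arrays were left out, was called only without empty vector replicate 1 (0.0296 to 0.067). Prkca, another protein kinase C, differed by -0.48 (limma adjusted p = 0.0375) and was then called only without Bmi1 replicate 3 (0.049 to 0.129). Prkacb was at -0.32 (limma adjusted p = 0.134) and Camk2g at -0.29 (limma adjusted p = 0.138).

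**Figure D3:**
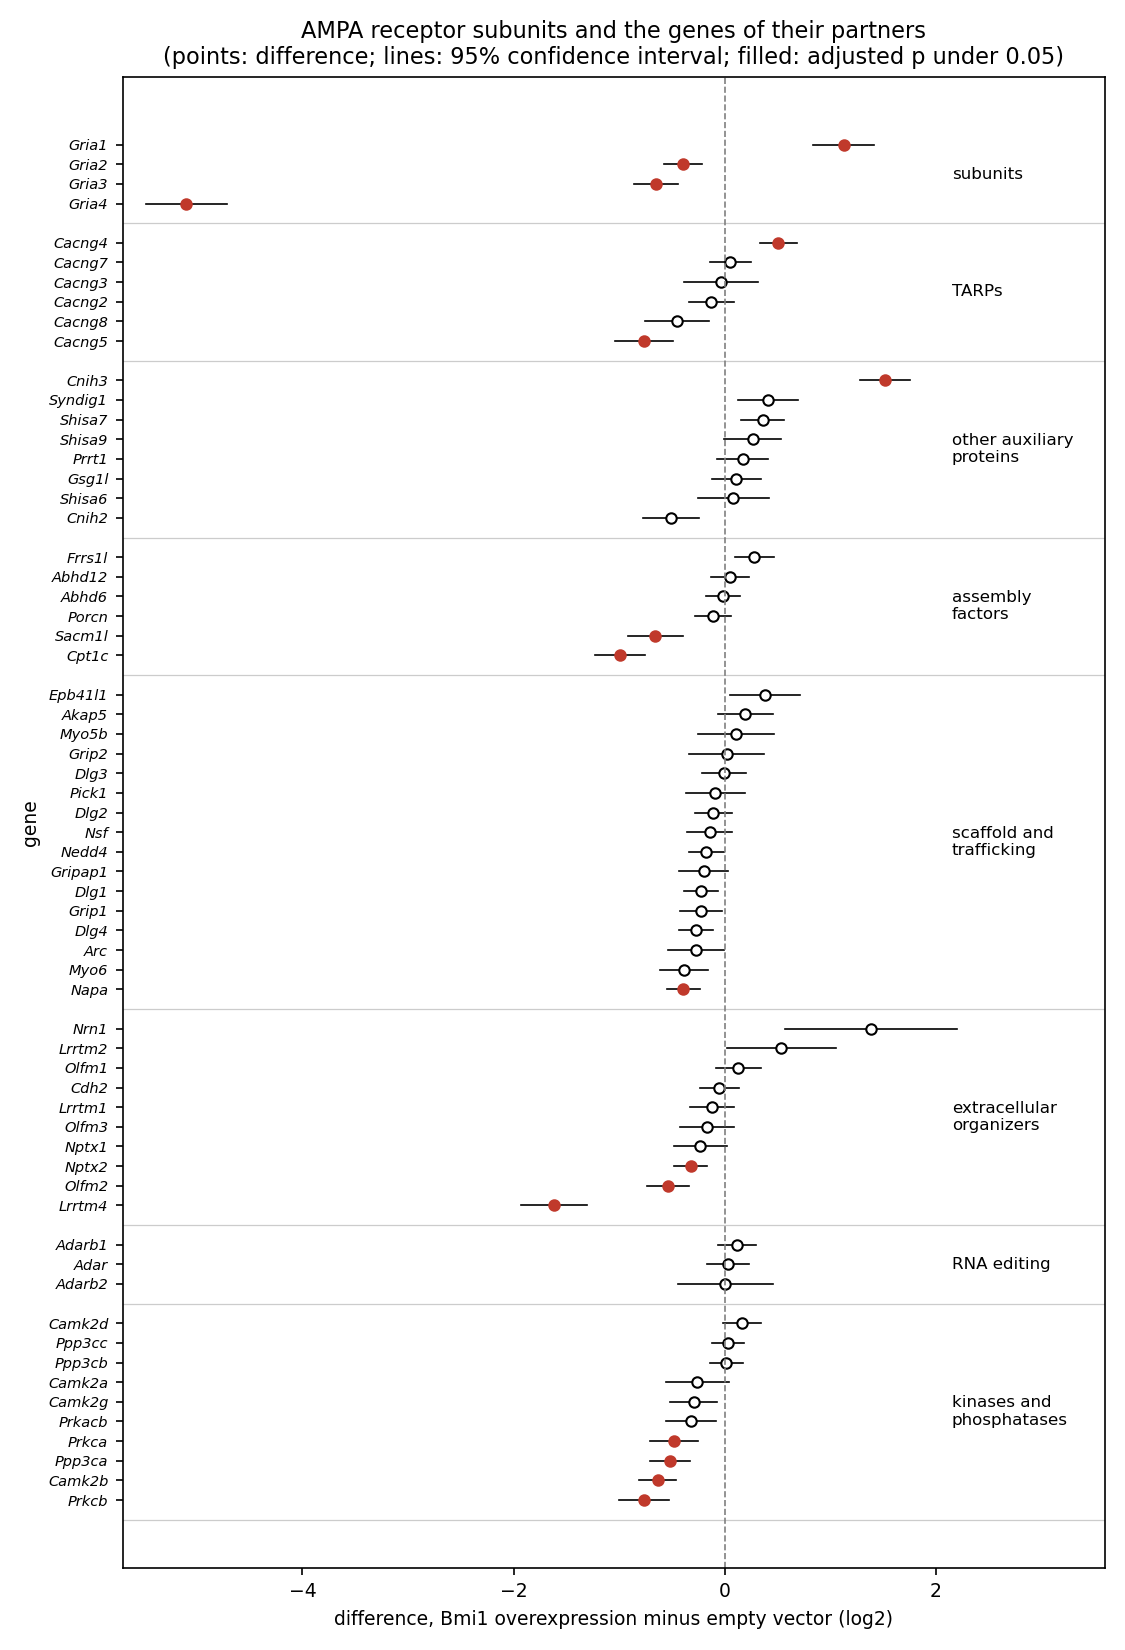
Differences between Bmi1-overexpressing and empty vector neurospheres (x axis, log2, with 95% confidence intervals) for the AMPA receptor subunits and 59 genes of their partners (y axis, grouped by role), filled red where the limma adjusted p was under 0.05. Gria4 at -5.10 lies far from every partner gene, the nearest of which is Lrrtm4 at -1.62, and Cnih3 at 1.52 and Cacng4 at 0.51 are the 2 partners that rose.

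The other ionotropic glutamate receptor genes are set beside the AMPA subunits for comparison. Of 5 kainate receptor subunits, 2 rose and none fell (median 0.16), where 2.98% of all genes rose and 4.37% fell. The 2 were Grik3 at 1.42 (limma adjusted p = 0.000624) and Grik4 at 0.79 (limma adjusted p = 0.00392). Of 6 measured NMDA receptor subunits, Grin2a alone fell (median 0.03), where 4.37% of all genes fell. It was at -0.74 (limma adjusted p = 0.0161), a call that was lost without Bmi1 replicate 1 or 2 or empty vector replicate 1 or 3 (up to 0.07). Grid1, the measured delta receptor gene, was at 0.44 (limma adjusted p = 0.0571).

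Genes whose profile over the 6 arrays was most like that of each subunit were found by the distance between mean-centred values among 19937 other genes, which follows the size of the group difference as well as its shape. Nearest to Gria4 were the olfactory receptor gene Olfr618 at a difference of -4.23, the Eph receptor gene Epha7 at -3.82 and Rps6ka6, a ribosomal S6 kinase, at -3.51. Their Pearson correlations with Gria4 were 0.992 to 0.995, yet their distances of 1.29, 1.67 and 2.04 were wide, and no probe set between -4.23 and the -5.10 of Gria4 was present. The Bmi1 means of Olfr618, Epha7 and Rps6ka6 were 3.34, 3.25 and 3.41. Like that of Gria4, these lay little above the lower quartile of the Bmi1 arrays, 2.88 to 2.92. Whether these signals were above background was not tested. Gria1 was nearest to Pllp, the membrane protein plasmolipin of myelinating cells, at 1.20, Shisal1 at 1.05 and B3gat2, a glucuronyltransferase, at 1.10, with distances of 0.18 to 0.20. Gria3 was nearest to Fhl1, a LIM domain protein, at -0.67, Ahdc1 at -0.67 and Kansl1l at -0.64 (distances 0.076 to 0.097). Gria2 was nearest to Dnm3, a dynamin, at -0.39, the BMP receptor gene Bmpr2 at -0.40 and Lmbrd2 at -0.40 (distances 0.055 to 0.07). These likenesses rest on 6 arrays in 2 groups and describe the profiles only.

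The genes next to each subunit gene in RefSeq gene order were examined as well, first the nearest measured gene on each side and then, after these values had been seen, 3 on each side. Next to Gria4, Msantd4 on one side was at 6.88, 7.06 and 6.88 in Bmi1-overexpressing neurospheres, against 7.75, 7.91 and 7.96 in empty vector controls (difference -0.93, limma adjusted p = 0.00347). Casp1, the inflammatory caspase, on the other side differed by -0.58 (limma adjusted p = 0.0335) but lost its call without any 1 of the arrays (0.0559 to 0.106). Both nearest genes were therefore lower in the Bmi1 group, by far less than Gria4. Farther out, Casp12 was at 2.28, 2.27 and 2.05 in Bmi1-overexpressing neurospheres, against 3.81, 4.04 and 4.53 in empty vector controls (difference -1.93, limma adjusted p = 0.00359), and Aasdhppt differed by -0.45 (limma adjusted p = 0.0117). The Bmi1 values of Casp12 and of Casp1 (mean 2.77, against 3.35 in empty vector controls) lay below the lower quartile of those arrays, 2.88 to 2.92. Whether they were above background was not tested. Aasdhppt was lost without Bmi1 replicate 2 or empty vector replicate 1 or 3 (up to 0.0553). In all, 4 of the 6 genes around Gria4 fell and none rose, where 4.37% of all genes fell. Msantd4 and Casp1 are among the 4 and had been seen before the window was widened, so the count is a description only. Kbtbd3 at -0.54 (limma adjusted p = 0.0948) and Casp4 at 0.12 (limma adjusted p = 0.687) did not pass.

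Around Gria2, 2 of 6 fell, where 4.37% of all genes fell. They were Pdgfc, a growth factor of the platelet-derived family, at -0.86 (limma adjusted p = 0.0036) and the protease gene Ctso at -0.60 (limma adjusted p = 0.00981). The immediate neighbours of Gria2 were Gask1b at 0.08 (limma adjusted p = 0.794) and the glycine receptor gene Glrb at 0.40 (limma adjusted p = 0.0735). None of the 6 genes around Gria1 and none of the 6 around Gria3 passed, where 7.35% of all genes were called. Their nearest neighbours were Nmur2 at -0.04 and Fam114a2 at -0.17 for Gria1, and 6030498E09Rik at -0.25 and Thoc2 at -0.39 for Gria3.

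**Figure D4:**
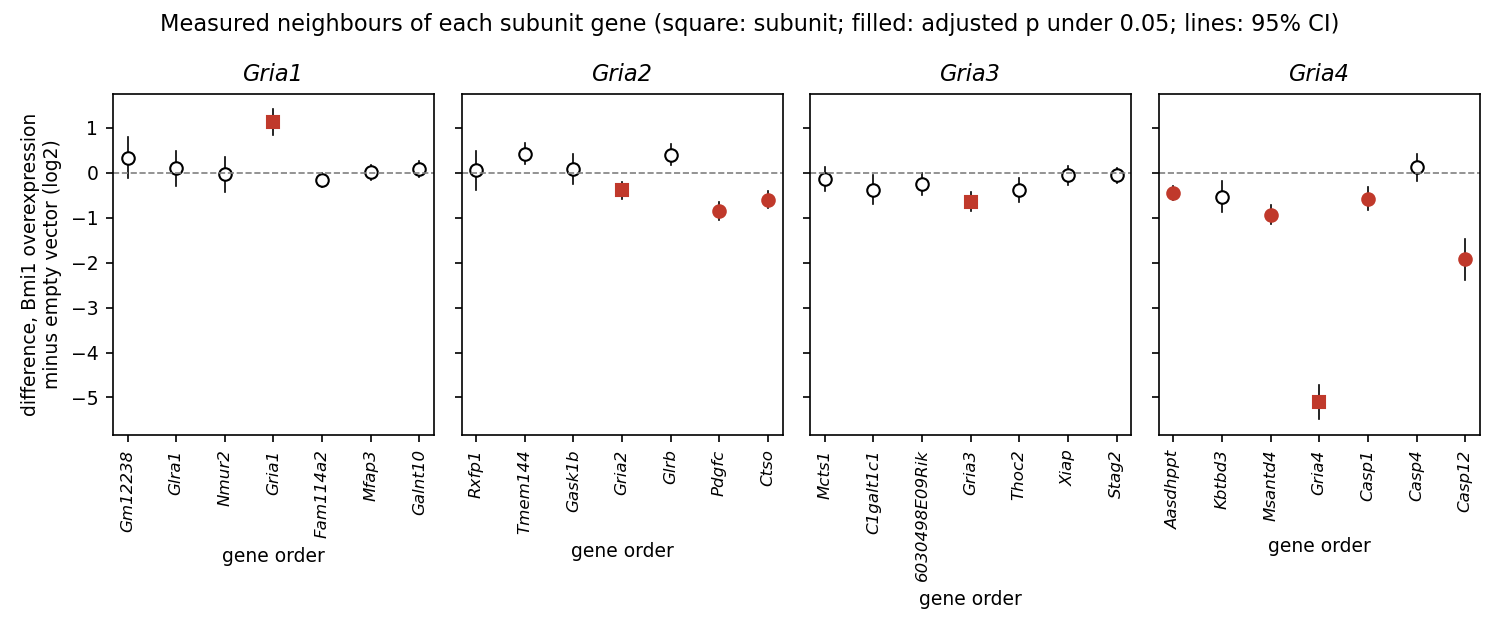
Differences between Bmi1-overexpressing and empty vector neurospheres (y axis, log2, with 95% confidence intervals) for each AMPA receptor subunit gene (square) and the 3 nearest measured genes on each side (circles) in gene order (x axis), filled where the limma adjusted p was under 0.05. Around Gria4, 4 of 6 neighbours fell, from -0.45 for Aasdhppt to -1.93 for Casp12, and around Gria1 and Gria3 none passed. Of all genes, 4.37% fell.

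Markers of the cell types that neurospheres can hold were set beside the subunits, and their part in the Gria differences was not tested. Markers of oligodendrocyte precursors, cells that carry AMPA receptors, rose in 5 of 10 cases and fell in none (median 0.66), where 2.98% of all genes rose, led by Lhfpl3 at 1.26 (limma adjusted p = 0.00065) and Nkx2-2 at 1.82 (limma adjusted p = 0.00288), which kept their calls without any 1 array. The other 3, Pdgfra, Gpr17 and C1ql1, all lost theirs without Bmi1 replicate 2, and Gpr17 and C1ql1 also without empty vector replicate 2 or 3, and Pdgfra and Gpr17 without empty vector replicate 1 (limma adjusted p up to 0.117). The remaining precursor genes were not called. Cspg4 at 0.38, Olig1 at 0.20 and Sox10 at 0.16 were higher in the Bmi1 group, and Olig2 at -0.19 and Ptprz1 at -0.11 were lower. The list's summed level was 12.63 to 12.71 on the Bmi1 arrays and 12.50 to 12.57 on the empty vector arrays. Gria1 lay in the same direction as the precursor markers that rose and Gria4 in the opposite one. Of 8 astrocyte markers 3 rose, where 2.98% of all genes rose, led by Ndrg2 at 3.05 (limma adjusted p = 0.00079) and Kcnj10 at 1.78 (limma adjusted p = 0.00231), with summed levels of 11.15 to 11.41 on the Bmi1 arrays and 10.67 to 10.80 on the empty vector arrays. The third, Aqp4 at 1.06, lost its call without Bmi1 replicate 2 or 3 or empty vector replicate 1 or 2 (limma adjusted p up to 0.0672). The remaining 5 astrocyte genes were not called, and the median over the list was 0.34. Among these 5, S100b at -0.38 and Gjb6 at -0.08 were lower in the Bmi1 group. Slc1a2 at 0.55, Aldh1l1 at 0.13 and Gfap at 0.10 were higher. Gfap averaged only 3.49 in Bmi1-overexpressing neurospheres and 3.39 in empty vector controls.

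Of 12 neuroblast and neuron markers 3 rose and 1 fell, where 2.98% of all genes rose and 4.37% fell. Elavl3 at 1.22 (limma adjusted p = 0.00116) kept its call without any 1 array. Gad1 at 0.59 (limma adjusted p = 0.0112) lost its call without empty vector replicate 2 (0.0541), Dcx at 0.55 without Bmi1 replicate 1 or empty vector replicate 2 or 3 (up to 0.0551), and Map2 at -0.47 without Bmi1 replicate 1 or any of the empty vector arrays (up to 0.0572). Dcx was dim, with means of 3.52 in Bmi1-overexpressing neurospheres and 2.98 in empty vector controls. The control mean lay close to the lower quartile of the control arrays, 2.86 to 2.93. The summed levels of the list were 10.54 to 10.63 on the Bmi1 arrays and 10.86 to 10.89 on the empty vector arrays. Map2 made up 73.5% to 84.9% of that sum, and without it the sum was 8.53 to 8.62 on the Bmi1 arrays and 8.14 to 8.23 on the empty vector arrays, so the direction was reversed.

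Of 9 measured neural stem and progenitor markers 2 rose, where 2.98% of all genes rose, and the median over the list was 0.012. The 2 that rose were Prom1 at 1.58 (limma adjusted p = 0.00418) and Hes5 at 1.05 (limma adjusted p = 0.0102). Nes, Sox2 and Vim averaged 9.64, 10.42 and 12.25 in Bmi1-overexpressing neurospheres and 9.69, 10.20 and 12.27 in empty vector controls and did not pass. Slc1a3 at -0.31 (limma adjusted p = 0.102), Egfr at -0.14, Fabp7 at 0.24 and Msi1 at 0.01 did not pass either. The summed levels of that list overlapped, at 13.79 to 13.85 on the Bmi1 arrays and 13.73 to 13.80 on the empty vector arrays. Of 7 myelinating oligodendrocyte markers 2 fell, Ugt8a at -1.53 (limma adjusted p = 0.00169) and Opalin at -0.78 (limma adjusted p = 0.0205, not called without any 1 array other than Bmi1 replicate 2), where 4.37% of all genes fell. Opalin was dim, with means of 3.04 in Bmi1-overexpressing neurospheres and 3.81 in empty vector controls. Its Bmi1 mean lay close to the lower quartile of those arrays, 2.88 to 2.92. Mbp at 0.16, Mag at 0.14, Mog at 0.09 and Mobp at 0.08 were not called. The summed levels of this list were 9.24 to 9.59 on the Bmi1 arrays and 9.05 to 9.13 on the empty vector arrays. Cnp, which did not pass (0.45, limma adjusted p = 0.0899), made up 76.0% to 87.9% of the sum, and without it the sum was 6.55 to 6.66 on the Bmi1 arrays and 6.90 to 6.99 on the empty vector arrays. None of the 6 ependymal, 7 microglial, 7 endothelial and 7 pericyte and fibroblast markers passed, and the microglial means lay between 2.48 and 4.17 in either group.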

How the data were processed

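RNA of 6 cultures, 3 per group, was measured on 6 arrays of the Affymetrix type Mouse Gene ST 1.0. Per the labels, the authors summarised and normalised the deposited log2 values by RMA in Affymetrix Expression Console, whose versions were not stated in the sources used here. RMA normalises arrays to each other before probe summary, so values are relative, and differences near the bottom of the scale are compressed. The deposited medians still differed slightly, and a further quantile normalization was an alternative. Gene names came from GEO's annotation of the platform, in which 21789 probe sets named 1 gene, 1621 named several and 12147 had no name. Where a gene had several probe sets, the one with the highest mean was taken.

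The comparison used the limma package (version 3.58.1, under R 4.3.3), with a two-sided moderated test from lmFit and eBayes on all 6 arrays without covariates or filter. Its p-values were adjusted by Benjamini-Hochberg across the 35557 probe sets, and the threshold was 0.05. The differences are Bmi1 minus empty vector, and intervals are 95% confidence intervals of the fit. Precision is limited by the few arrays. The code was tested on simulated data. Figures were drawn with Python 3.11.15 and matplotlib 3.10.9. The members and the 20 gene lists (156 symbols, 148 measured) were chosen with earlier results of these data known. The rule for naming genes took the members, Bmi1 and Cdkn2a, and called members of the AMPA receptor lists (at most 6 per list) with at most 2 more that were not called. It also took at most 2 called genes of each other list, the 3 genes most alike to each member and the nearest neighbours. Beyond this rule, further called marker genes, some marker genes that were not called, Adarb2 and some neighbours farther out were named. A list's summed level is the log2 of its summed linear values on an array. Alternatives were other variance priors, array weights, the t-test named in the methods, also in the Welch form, median centring, quantile normalization, a filter on dim probe sets, other probe set choices, the replicate block and leaving out each array.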

Additional observations from a re-analysis of the deposited data

How the results depend on the processing

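All Gria differences kept their direction under every alternative run. Gria4 was called under all 12 alternatives and without any 1 array (difference -5.26 to -4.96). Gria1 (1.07 to 1.22 without 1 array) was lost only under the Welch form of the methods' t-test (difference 1.13, adjusted p 0.0752), which also ended the calls of Gria2 (-0.39, 0.103) and Gria3 (-0.65, 0.0884). With the methods' own cut-offs (unadjusted p under 0.001, log2 difference of 1 or more) the t-test called neither Gria2 (-0.39) nor Gria3 (-0.65), and after Benjamini-Hochberg adjustment it did not call Gria2 (-0.39, 0.0557). Quantile normalization gave Gria2 -0.35 (adjusted p 0.0547), and leaving out 1 array gave Gria2 -0.44 to -0.36, not called, and Gria3 -0.69 to -0.59, called. With the replicate block, Gria2 (-0.39, adjusted p 0.111) and Gria3 (-0.65, 0.0708) were not called. In that fit 306 probe sets rose, 544 fell and 5 partner genes were called. Deviations of same-numbered arrays correlated at 3.4e-05, -0.032 and -0.018. No pairing by number was thus seen, but 3 arrays per group cannot exclude one.

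Probe sets that rose (794) became 1364 with an intensity trend, 100 at the t-test's own threshold, 492 with the adjusted t-test, 71 with its Welch form, 1544 with the filter and 332 to 455 without 1 array. Those that fell (1231) became 200, 139 in the Welch form, 1880 with the filter and 642 to 820 without 1 array. Partner genes called (13) became 2 at the t-test's own threshold, 1 in its Welch form, 21 with the filter, 21 with 1 probe set per gene (where 1139 of all 19938 genes rose and 1400 fell), 21 with the mean of a gene's probe sets and 6 to 9 without 1 array. The filter tests fewer probe sets and leaving out an array uses fewer samples; otherwise the cause was not tested. No detection calls were available, so low signals such as Gria4 in the Bmi1 group have no stated background.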
